A study of Homo sapiens with 6 samples.

Results

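NEAT1 and MALAT1 are abundant long non-coding RNAs of the cell nucleus, transcribed from neighbouring genes on chromosome 11. NEAT1 is the RNA scaffold of paraspeckles, nuclear bodies that form where several NEAT1 molecules are bundled with proteins, and MALAT1 lies in nuclear speckles, which hold splicing factors. The short NEAT1 isoform ends at a polyadenylation site, whereas the long isoform, on which paraspeckles are built, reads past that site. The ends of the long NEAT1 isoform and of MALAT1 are cut by RNase P, an enzyme best known for trimming tRNA, and are protected by a triple helix in place of a poly(A) tail. SFPQ, NONO and PSPC1 form the DBHS family of RNA-binding proteins, whose dimers coat NEAT1. RBM14 is a further paraspeckle protein with a prion-like domain, and TARDBP encodes the TAR DNA-binding protein, an RNA-binding protein that acts on the choice between the NEAT1 isoforms.

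These 7 genes were found by their symbols among the 30230 genes of the count table, each as a single row, and all 7 passed the filter on low counts that left 17076 genes. The set was chosen by the measured rise of NEAT1 in these libraries, together with the known partners of NEAT1, so the values of the 7 genes in this comparison are a description and carry no test. The cells were A549, which derive from a lung adenocarcinoma. Poly(A)-selected RNA was sequenced as 3 libraries from cells given a scramble siRNA (NC) and 3 from cells given an siRNA against FSCN1 (siFSCN1). FSCN1 encodes fascin, which bundles actin filaments, and the comparison asks which transcripts change once it is silenced. The study also regards FSCN1 as an RNA-binding protein and reports, from immunoprecipitated RNA, that it could bind NEAT1. That binding was not examined here. All groups share the parental cell line and the transfection, and the treatment label of the NC samples names a control plasmid rather than an siRNA. The study calls the libraries biological replicates, the cells all stem from 1 line, and only 1 siRNA sequence against FSCN1 was used for sequencing, so that its other targets cannot be told apart from the loss of FSCN1.

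The libraries held between 27967301 and 36560919 counts. FSCN1 lay between 44.98 and 47.24 FPKM (fragments per kilobase of transcript, scaled by the fragments of the library) in NC and between 2.82 and 4.46 FPKM in siFSCN1. Of 6 epithelial markers, KRT18 lay between 1675.44 and 1946.66 FPKM in NC and between 939.24 and 1156.8 in siFSCN1, and KRT7, KRT8 and KRT19 were lower in siFSCN1 too, while EPCAM (at most 3.34 in NC and 4.51 in siFSCN1) and CDH1 (at most 9.41 and 26.65) were higher. Of the markers of alveolar type 2 cells, ABCA3 lay between 2.41 and 2.96 FPKM and LAMP3, SFTPC and NKX2-1 stayed at or below 0.12 FPKM. Of the markers of leukocytes, endothelial cells and fibroblasts, CD68 reached 0.65 FPKM and COL1A1 0.39 FPKM, and the others stayed at or below 0.03 FPKM. Their part in the results was not tested. In such bulk RNA, fewer cells with a transcript and less of it per cell cannot be told apart. The 13 mitochondrially encoded protein genes took 8.61% to 9.29% of counts in NC and 12.6% to 12.8% in siFSCN1, a difference whose part in the results was not tested.

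The 3′ ends of NEAT1 and MALAT1 are shown because these libraries were made from poly(A)-selected RNA, so that the way a transcript ends bears on whether it was captured. The first sequence holds the end of the short NEAT1 isoform at chr11:65426454-65426533 (GRCh38, plus strand), with the polyadenylation signal AATAAA in capitals. It was placed by the annotated transcript NEAT1-209, which ends at 65426513, and other short transcripts are annotated to end elsewhere. The second holds the end of the long NEAT1 isoform at chr11:65445421-65445570, and the third the end of mature MALAT1 at chr11:65505988-65506158, both with runs of at least 4 A or 4 T in capitals.
NEAT1 short isoform: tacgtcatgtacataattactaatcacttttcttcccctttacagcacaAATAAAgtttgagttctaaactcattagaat
NEAT1 long isoform: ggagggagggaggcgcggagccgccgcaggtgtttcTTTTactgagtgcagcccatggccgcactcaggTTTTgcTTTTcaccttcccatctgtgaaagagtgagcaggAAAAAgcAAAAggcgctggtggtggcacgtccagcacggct
MALAT1: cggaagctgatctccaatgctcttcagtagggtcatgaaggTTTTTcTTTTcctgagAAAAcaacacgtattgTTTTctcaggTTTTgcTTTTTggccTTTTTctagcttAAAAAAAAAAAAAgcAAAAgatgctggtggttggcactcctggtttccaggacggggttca

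The ends of the long NEAT1 isoform and of MALAT1 had 16 bases in common, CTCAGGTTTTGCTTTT, which start at position 65445484 in NEAT1 and 65506065 in MALAT1. Downstream of it each window held an A-rich stretch, with a longest run of 5 A in NEAT1 and 13 A in MALAT1. No AATAAA occurred in the last 60 bases of the long NEAT1 isoform. A run of A in the RNA itself can be held by poly(A) capture beads, but how far each of these transcripts was captured cannot be read from gene counts.

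NEAT1 (ENSG00000245532.9, GRCh38 chromosome 11, 65422774 to 65445540, plus strand) is annotated with 9 transcripts, of which the long one is a single exon of 22743 bases and the other 8 end in the first part of the gene. Its deposited values were 4.23, 5.14 and 5.82 FPKM in NC replicates 1 to 3 and 20.81, 20.07 and 20.74 FPKM in siFSCN1 replicates 1 to 3. The groups did not overlap, and the NC libraries were spread more widely than the siFSCN1 libraries. On the scale of TMM-scaled CPM (counts scaled to a common library size, allowing for library composition), NEAT1 averaged 145 CPM (SD 21.6) in NC and 525 CPM (SD 6.02) in siFSCN1 (n = 3 libraries in each group, as for every mean and SD here), a log2 fold change of 1.85 ± 0.0695 (SE), or 3.61-fold. Its share of all counts was 0.0136% (SD 0.00206) in NC and 0.0559% (SD 0.00121) in siFSCN1. By mean FPKM it moved from place 5142 to place 1588 among all genes of the table.

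The level of NEAT1 per kilobase depends on which isoform its reads came from. Dividing counts by FPKM gave a length of 22769 bases behind the deposited NEAT1 values, close to the 22767 bases that all annotated exons of the gene cover together. Had all reads come from the annotated short transcript NEAT1-201 of 3441 bases, the level would have been 33.5 FPKM ± 5.27 (SD, n = 3) in NC and 136 FPKM ± 2.65 (SD, n = 3) in siFSCN1. Other annotated short transcripts differ from it in length and end. The short isoform lies within the long one, so counts per gene do not separate them, and the fold change is that of their sum.

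MALAT1 (ENSG00000251562.8, GRCh38 chromosome 11, 65497640 to 65508073, plus strand) begins 52099 bases beyond the end of NEAT1, on the same strand. Its deposited values were 6.52, 7.11 and 8.82 FPKM in NC and 30.36, 30.87 and 39.15 FPKM in siFSCN1. The groups were fully separated, and in each group replicate 3 held the highest value. TMM-scaled levels were 83.1 CPM (SD 12.5) and 331 CPM (SD 49.8), a log2 fold change of 1.99 ± 0.0927 (SE), or 3.98-fold. Without siFSCN1 replicate 3 the log2 fold change was 1.85. MALAT1 accounted for 0.00778% of counts ± 0.00118 (SD, n = 3) in NC and 0.0354% (SD 0.00576) in siFSCN1, and it moved from place 3932 to place 948 by mean FPKM.

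NEAT1 and MALAT1 kept a similar ratio to each other in the 6 libraries. MALAT1 FPKM divided by NEAT1 FPKM was 1.54, 1.38 and 1.52 in NC and 1.46, 1.54 and 1.89 in siFSCN1. The siFSCN1 range overlapped that of NC, and siFSCN1 replicate 3 held the largest ratio.

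**Figure D1:**
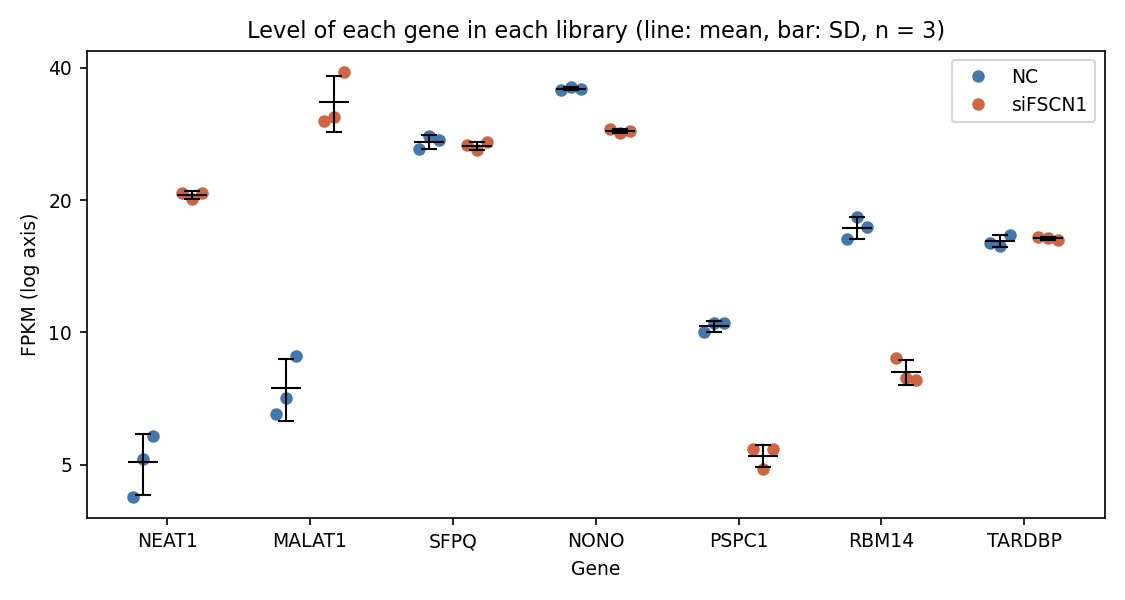
FPKM on a log axis for each of the 7 genes, with a point for each library, a line at the mean and a bar for the SD of the 3 libraries of a group. NEAT1 rises from between 4.23 and 5.82 to between 20.07 and 20.81 and MALAT1 from between 6.52 and 8.82 to between 30.36 and 39.15, while PSPC1 and RBM14 lie lower in siFSCN1 and SFPQ and TARDBP overlap on this scale.

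The protein genes took other directions. PSPC1, the DBHS member named for paraspeckles (ENSG00000121390.19, GRCh38 chromosome 13, 19674752 to 19783019, minus strand), had 10, 10.49 and 10.49 FPKM in NC and 5.42, 4.9 and 5.42 FPKM in siFSCN1. Its counts were 1768, 1674 and 2157 in NC and 993, 882 and 998 in siFSCN1. Every siFSCN1 library lay below every NC library, at about the same level as the others of its group. The TMM-scaled means were 62.6 CPM (SD 1.25) and 28.3 CPM (SD 1.37), a log2 fold change of -1.14 ± 0.0526 (SE), or 45.3% of the NC level. With library totals and no composition factor, the ratio of siFSCN1 to NC was 0.516.

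RBM14 (ENSG00000239306.5, GRCh38 chromosome 11, 66616626 to 66629934, plus strand), a coactivator and splicing regulator as well as a paraspeckle protein, had 16.33, 18.29 and 17.34 FPKM in NC and 8.74, 7.87 and 7.79 FPKM in siFSCN1. The groups again did not overlap. The log2 fold change was -1.26 ± 0.0505 (SE), from 141 CPM (SD 7.37) to 59.1 CPM (SD 3.12), or 41.9% of the NC level. RBM14 overlaps the readthrough gene RBM14-RBM4 on the same strand, and reads in shared sequence could be split between their rows. RBM14-RBM4 held 3931, 3712 and 4738 counts in NC and 3391, 3046 and 3207 in siFSCN1, a log2 fold change of -0.54 (standard error 0.0416, adjusted p = 1.8e-09 in edgeR). RBM4, another paraspeckle protein, held only 164, 120 and 190 counts in NC and 312, 270 and 268 in siFSCN1 (log2 fold change 0.67, standard error 0.12, adjusted p = 7.9e-05). The 3 rows together held 7980, 7757 and 9726 counts in NC and 5858, 5223 and 5404 in siFSCN1, so the summed counts of the locus were lower in every siFSCN1 library, while the size for RBM14 alone is uncertain.

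NONO (ENSG00000147140.17, GRCh38 chromosome X, 71254814 to 71301522, plus strand), the most abundant of the 7 genes in NC, had 35.68, 36.12 and 35.83 FPKM in NC and 28.99, 28.38 and 28.71 FPKM in siFSCN1. The values within each group were nearly equal and the groups did not overlap. The log2 fold change was -0.49 ± 0.0341 (SE), a ratio of siFSCN1 to NC of 0.713, or 0.812 with library totals. NONO overlaps ZMYM3 on the opposite strand, which held at most 1221 counts in any library against at least 11913 for NONO.

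SFPQ (ENSG00000116560.11, GRCh38 chromosome 1, 35176378 to 35193446, minus strand), a splicing factor and the main partner of NONO, had 26.11, 28.02 and 27.36 FPKM in NC and 26.67, 25.99 and 27.07 FPKM in siFSCN1, with overlapping groups. On the TMM scale its log2 fold change was -0.20 ± 0.0374 (SE), and with library totals it was -0.01. TARDBP (ENSG00000120948.19, GRCh38 chromosome 1, 11012344 to 11030528, plus strand) had 16.0, 15.69 and 16.68 FPKM in NC and 16.52, 16.37 and 16.2 FPKM in siFSCN1, again with overlap. Its log2 fold change was -0.14 ± 0.0402 (SE) on the TMM scale, while with library totals it had the other sign, at 0.043. For SFPQ and TARDBP the scaling therefore set whether a difference was seen. Over all tested genes the median log2 fold change was 0.03 on the TMM scale, 0.15 with upper quartile scaling and 0.22 with library totals, and the values of the other 5 genes kept their sign under every scaling.

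At an adjusted p under 0.05 with at least a 2-fold change, the rule the study used, 4 of the 7 genes were called in edgeR's quasi-likelihood test, where 16.5% of all tested genes were called (1991 higher and 829 lower, or 2637 higher and 510 lower with library totals). NEAT1 and MALAT1 were called higher, against 11.7% of tested genes, and PSPC1 and RBM14 lower, against 4.85%. Without the 2-fold limit 2 were higher and 5 lower, against 35.1% and 33.2% of tested genes. The TMM-scaled CPM of all 7 genes did not overlap between groups, which held for 71.3% of tested genes. Since the genes were chosen with this comparison known, nothing is read from these counts.

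The order of the 7 genes by FPKM changed between the groups. In NC it ran from NONO (35.9) through SFPQ (27.2), RBM14 (17.3), TARDBP (16.1), PSPC1 (10.3) and MALAT1 (7.48) to NEAT1 (5.06), and of neighbours in this order only RBM14 and TARDBP had overlapping ranges. In siFSCN1 it ran from MALAT1 (33.5) through NONO (28.7), SFPQ (26.6), NEAT1 (20.5), TARDBP (16.4) and RBM14 (8.13) to PSPC1 (5.25), with no overlap between neighbours. The length behind the deposited MALAT1 values was 8829 bases, shorter than the 10434 bases now annotated. Over the annotated length MALAT1 came second after NONO in siFSCN1, at 31.8 against 32.2 CPM per kilobase. The place of NEAT1 rests on the length of 22769 bases behind its deposited values. Over the short transcript of 3441 bases its mean would be 33.5 FPKM in NC, between NONO and SFPQ. In siFSCN1 it would be 136 FPKM, above MALAT1.

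The make-up of the DBHS family differed as well. The FPKM of NONO, SFPQ and PSPC1 summed to 71.8, 74.6 and 73.7 in NC and 61.1, 59.3 and 61.2 in siFSCN1. The share of PSPC1 in that sum was 14.1% (SD 0.153) in NC and 8.67% (SD 0.344) in siFSCN1, whereas that of SFPQ was 37.0% (SD 0.557) and 43.9% (SD 0.252). These shares are free of library scaling, because they are taken within a library. NEAT1 FPKM divided by the DBHS sum was 0.0689 (SD 0.0101) in NC and 0.34 (SD 0.00115) in siFSCN1. Both ratios take NEAT1 over a length of 22769 bases and would be higher over a short transcript.

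**Figure D2:**
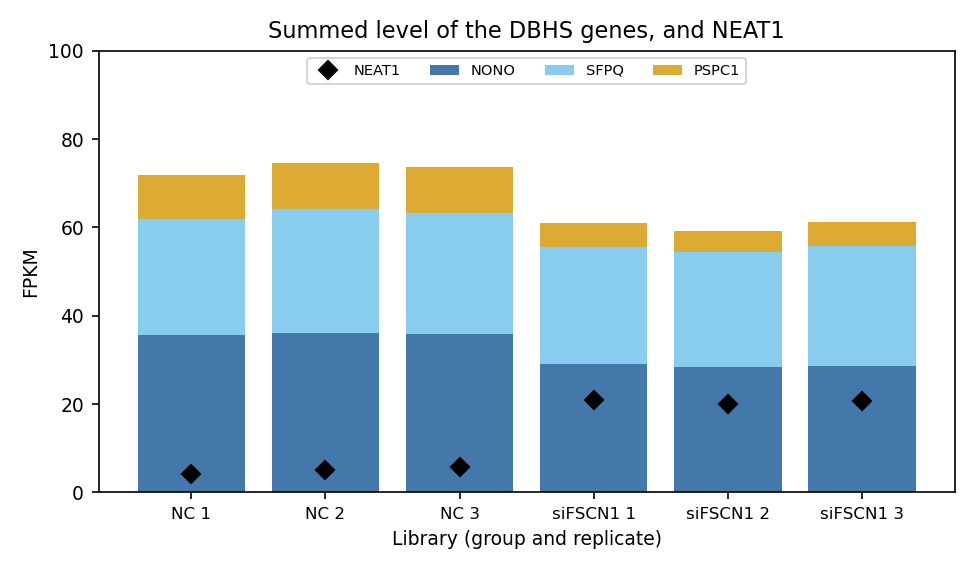
Stacked bars of the FPKM of NONO, SFPQ and PSPC1 in each of the 6 libraries, with NEAT1 FPKM as a black diamond. The summed bars lie between 71.8 and 74.6 in NC and between 59.3 and 61.2 in siFSCN1, the PSPC1 segment is smaller in siFSCN1, and NEAT1 is higher there.

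Promoter sequences were found for 5 of the 7 genes (RefSeq, GRCh38.p14, 250 bases before to 50 after the start), with 2 starts for MALAT1, and none was found for NEAT1 and SFPQ. The windows of the downstream MALAT1 start, of PSPC1 and of RBM14 are shown because these genes moved furthest among the 5. Of the 2 MALAT1 starts only the downstream one is shown. Their positions are chr11:65498795-65499094 (plus strand), chr13:19782896-19783195 (minus strand) and chr11:66616380-66616679 (plus strand). Capitals mark matches on either strand to the TATA box TATAAA in MALAT1, to the CCAAT box CCAAT in RBM14, and to GCCATNTT, the core bound by YY1, and GCATGCGC, the core bound by NRF1, in PSPC1.
MALAT1 promoter: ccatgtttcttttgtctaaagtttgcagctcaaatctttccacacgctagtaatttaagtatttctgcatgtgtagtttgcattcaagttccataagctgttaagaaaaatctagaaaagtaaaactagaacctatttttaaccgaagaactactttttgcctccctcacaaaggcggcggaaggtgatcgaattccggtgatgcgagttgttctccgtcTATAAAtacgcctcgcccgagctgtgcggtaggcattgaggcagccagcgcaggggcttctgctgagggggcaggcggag
PSPC1 promoter: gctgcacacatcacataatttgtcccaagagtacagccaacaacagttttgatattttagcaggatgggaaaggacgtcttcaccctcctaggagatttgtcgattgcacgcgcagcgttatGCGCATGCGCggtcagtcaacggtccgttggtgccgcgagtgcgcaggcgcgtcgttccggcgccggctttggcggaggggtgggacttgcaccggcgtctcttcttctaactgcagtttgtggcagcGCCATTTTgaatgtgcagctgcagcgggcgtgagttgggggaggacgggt
RBM14 promoter: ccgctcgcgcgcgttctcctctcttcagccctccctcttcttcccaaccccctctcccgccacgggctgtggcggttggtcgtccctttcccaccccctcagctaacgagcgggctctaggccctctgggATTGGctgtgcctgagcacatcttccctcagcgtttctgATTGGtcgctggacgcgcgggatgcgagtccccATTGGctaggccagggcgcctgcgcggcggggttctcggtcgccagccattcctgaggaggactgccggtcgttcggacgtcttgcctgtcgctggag

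The motifs were chosen after the promoters had been seen, and a match is a description of letters only. RBM14 and NONO each held 3 CCAAT boxes, which occurred at least once in 34.6% of 34943 promoter windows of this length. The YY1 core lay in the windows of PSPC1, NONO and TARDBP, against 6.57% of all windows. The NRF1 core matched on both strands of 1 palindrome in PSPC1, against 3.02% of all windows with a match. The TATA box of MALAT1 occurred in 11.6% of windows. The upstream MALAT1 start held 5 GC boxes (GGGCGG), a motif found in 44.9% of windows. The E-box CACGTG (7.23%) and the cAMP response element TGACGTCA (1.84%) matched none of the 6 windows, and the hypoxia response core ACGTG (21.4%), which the E-box contains, matched only that of TARDBP.

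The adjusted p-values from here on rest on the spread between 3 libraries a group from 1 cell line. The shares of all tested genes set beside each list are not matched for level, and the lists were chosen with earlier results of these data known. Lists set by position or level leaned lower too. Of tested genes within 300000 bases of NEAT1 or MALAT1, 50% were lower and 25% higher. Of other long non-coding RNAs with a mean of at least 5 FPKM, 45.8% were lower and 21.1% higher. An excess of lower genes was thus seen in these lists as well, at smaller shares than the 81.2% lower of the RNase P list below. Its cause was not tested. Of 8 genes for other proteins on which paraspeckles depend, 3 were higher and 4 lower at an adjusted p under 0.05 in edgeR (37.5% and 50%, against 35.1% and 33.2% of all tested genes), with a median log2 fold change of -0.17 against 0.031 for all tested genes. None changed 2-fold. DAZAP1 (-0.47, adjusted p = 1.1e-08) and HNRNPK (-0.33, adjusted p = 2.1e-07), which favours the long NEAT1 isoform, fell. SMARCC2, a subunit of the SWI/SNF chromatin remodelling complex, rose by 0.32 (adjusted p = 1.0e-05). SMARCB1, of the same complex, stood at -0.92 (adjusted p = 1.1e-11), with means of 4.59 FPKM in NC and 2.73 FPKM in siFSCN1, and was named after its value was seen.

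Of 34 tested genes whose proteins have been found in paraspeckles, 10 were higher and 20 lower (29.4% and 58.8%, against 35.1% and 33.2% of all tested genes), with a median of -0.24. TOE1, an RNA deadenylase, fell by 1.04 on the log2 scale (standard error 0.104, adjusted p = 5.9e-08), and RBM12 (-0.97, adjusted p = 5.6e-12), HNRNPF (-0.79, adjusted p = 3.4e-12) and FAM98A (-0.72, adjusted p = 5.1e-10) fell less. FIGN (1.11, adjusted p = 1.0e-06) and SS18L1 (1.17, adjusted p = 4.8e-09) were the 2 that rose at least 2-fold, both below 5 FPKM and named after their values were seen. With library totals 13 genes of this list were higher and 12 lower, so the excess of lower genes was not seen on that scale.

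The genes that form RNA 3′ ends were tested because the choice of the NEAT1 polyadenylation site sets its isoform. Of 19 genes of cleavage and polyadenylation, 5 were higher and 9 lower (26.3% and 47.4%, against 35.1% and 33.2% of all tested genes), with a median of -0.10. CPSF6, CPSF7 and NUDT21 are also among the genes whose proteins have been found in paraspeckles, so they are counted in both lists. CSTF2, which binds downstream of the cleavage site, had the largest change at -0.97 (standard error 0.0541, adjusted p = 2.2e-11). CPSF4 (-0.41, adjusted p = 9.1e-06), CSTF1 (-0.32, adjusted p = 2.0e-05) and CLP1 (-0.30, adjusted p = 3.0e-04) also fell. With library totals 7 of the 19 were higher and 3 lower, which turned the balance. Without NC replicate 3 the number of higher genes was 3.

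Of 16 genes tested for RNase P, which cuts the ends of MALAT1 and long NEAT1, and for other enzymes and binders of such ends, 13 were lower and 2 higher (81.2% and 12.5%, against 33.2% and 35.1% of all tested genes), with a median of -0.29. POP7 fell by 1.16 on the log2 scale (standard error 0.0665, adjusted p = 3.1e-11), from 66.4 to 29.8 CPM, and POP4 by 0.83 (adjusted p = 1.2e-11). RPP25 (-0.63, adjusted p = 1.8e-08) and RPP40 (-0.59, adjusted p = 1.1e-06) fell too, and all 4 are protein subunits of RNase P. With library totals 8 of the 16 were lower and 3 higher. RPP21 was the gene that rose 2-fold (1.15, adjusted p = 0.00706), at no more than 0.56 FPKM in any library, and METTL16, which binds the MALAT1 triple helix, stood at -0.056 and did not pass.

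Nuclear speckles, where MALAT1 resides, were covered by 32 genes, of which 8 were higher and 15 lower (25% and 46.9%, against 35.1% and 33.2% of all tested genes), with a median of -0.085. SRRM1 (-0.99, adjusted p = 6.1e-12), which helps join splicing to 3′ end formation, and U2AF2 (-0.85, adjusted p = 9.9e-13), which binds the polypyrimidine tract before an exon, fell most among those with at least 5 FPKM in the higher group. SRRM1 averaged 6.09 FPKM in NC and 3.45 FPKM in siFSCN1. SRSF1 and SRSF3, members of the SR family of splicing factors, each stood at -0.66 (adjusted p = 2.9e-10 and 2.2e-11). None of the 32 changed 2-fold, and with library totals 15 were higher and 12 lower, which turned the balance.

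Of 9 genes for transcription factors reported to act on the NEAT1 promoter, 3 were higher, 3 lower and 3 did not pass, and the 33.3% in each direction lay near the 35.1% and 33.2% of all tested genes. EPAS1, the hypoxia-inducible factor 2 alpha, rose by 0.71 on the log2 scale (standard error 0.0412, adjusted p = 3.9e-11), from 176 to 287 CPM. STAT3 rose by 0.59 (adjusted p = 7.1e-10) and HSF1, the heat shock factor, fell by 0.40 (adjusted p = 4.8e-07). The level of an mRNA does not give the activity of the factor, which was not measured here.

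**Figure D3:**
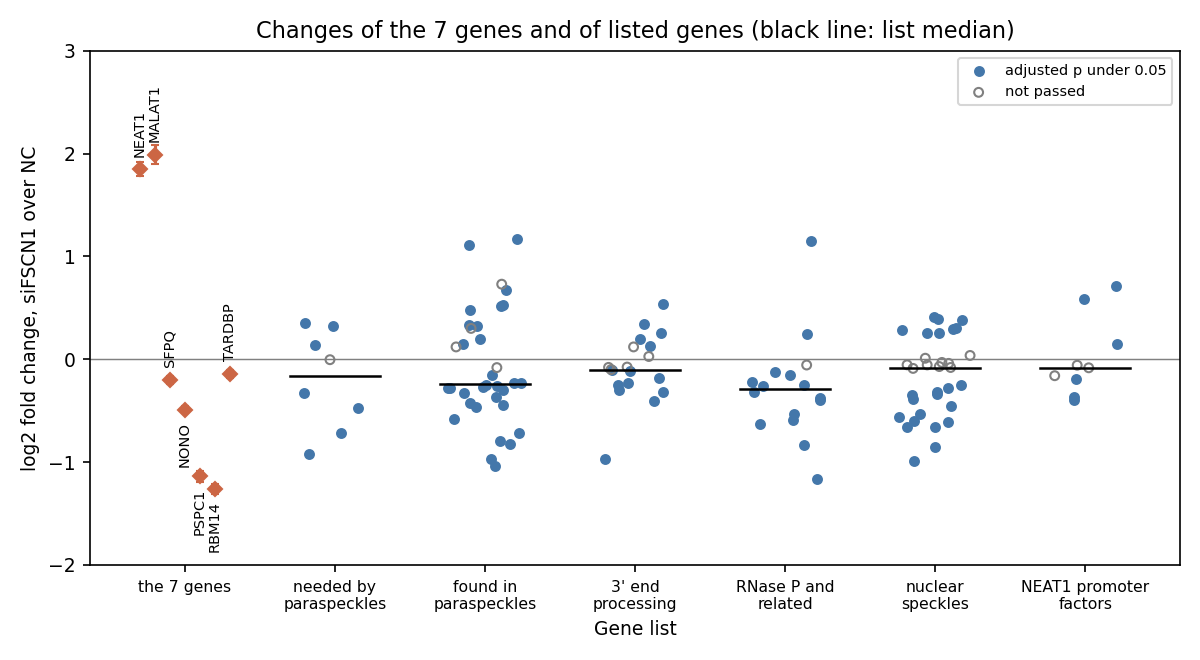
Log2 fold change of siFSCN1 over NC on the TMM scale for the 7 genes (diamonds, bars for the standard error) and for each tested gene of the 6 lists, filled where the adjusted p was under 0.05. The list medians, drawn as black lines, lie between -0.29 and -0.083, and NEAT1 (1.85) and MALAT1 (1.99) lie above every gene of the lists. The rise of NEAT1 was known when it was chosen.

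Among long non-coding RNAs as a class, 26.1% of the 2642 tested were called at least 2-fold higher, against 11.7% of all tested genes. Of 166 others with a mean of at least 5 FPKM, 6 were called at least 2-fold higher (3.61%) and 13 lower, where 4.85% of all tested genes were lower, and the difference between the abundant genes and the class was not tested. At an adjusted p under 0.05, 35 were higher and 76 lower (21.1% and 45.8%, against 35.1% and 33.2% of all tested genes), with a median log2 fold change of -0.17. With library totals these were 51 and 54. A larger log2 fold change than that of NEAT1 was found for 2 of the 166, and a larger one than that of MALAT1 for 1 of them. These were CTD-2017F17.2 (2.20, adjusted p = 1.5e-09) and BCAN-AS1 (1.90, adjusted p = 1.3e-12). They averaged 1.63 and 2.02 FPKM in NC and 8.41 and 8.43 FPKM in siFSCN1, so they reached a mean of 5 FPKM through siFSCN1. Since NEAT1 was chosen by its rise in this comparison, its place among these RNAs is a description only. The next rises were those of RP11-299M14.2 (1.41), ENSG00000274769.1 (1.31) and STAG3L5P-PVRIG2P-PILRB (1.24), and the largest falls those of RP1-56K13.3 (-2.28) and RP4-816N1.7 (-1.44), each with an adjusted p of at most 5.2e-06. LINC00973 (-1.39, adjusted p = 7.8e-09) and RP11-603J24.17 (-1.40, adjusted p = 4.1e-08) also fell, as did AC107081.5 (-1.36, adjusted p = 8.2e-07). All long non-coding RNAs without NEAT1 and MALAT1 took 1.12% of counts ± 0.0283 (SD, n = 3) in NC and 1.32% (SD 0.0291) in siFSCN1.

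**Figure D4:**
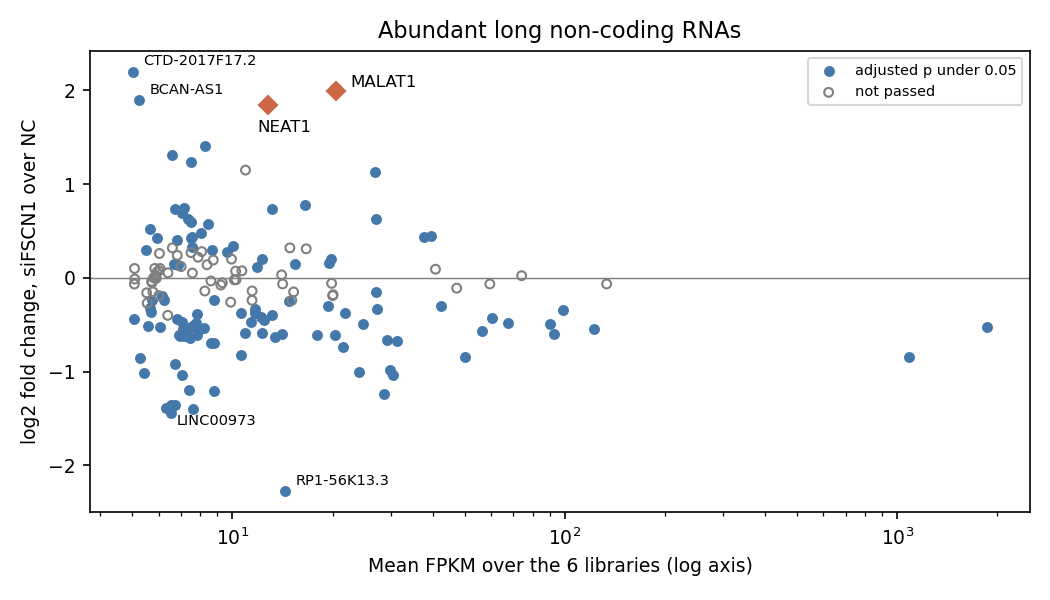
Log2 fold change on the TMM scale against mean FPKM over the 6 libraries on a log axis, for the 166 other abundant long non-coding RNAs and for NEAT1 and MALAT1 (diamonds). NEAT1 (1.85), which was chosen by its rise in this comparison, and MALAT1 (1.99) lie near the top of the plot, while the median of the others is -0.17.

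Of 28 tested genes within 300000 bases of either, 7 were higher and 14 lower (25% and 50%, against 35.1% and 33.2% of all tested genes), with a median of -0.28. With library totals 9 were higher and 11 lower. FRMD8, the nearest coding gene upstream of NEAT1, fell by 0.46 on the log2 scale (adjusted p = 1.1e-05). LTBP3, which binds latent TGF-beta, rose by 0.72 (adjusted p = 2.3e-10), whereas MAP3K11, a kinase of the JNK pathway, fell by 1.54 (adjusted p = 2.8e-13) and RELA, a subunit of NF-kappaB, by 0.87 (adjusted p = 2.0e-11). CAPN1, a calcium-dependent protease, fell by 0.89 (adjusted p = 1.0e-11). The 2 rises of at least 2-fold were those of the pseudogenes SLC22A20P (2.69, adjusted p = 2.8e-06) and PGAM1P8 (1.68, adjusted p = 1.5e-04), with means of 1.18 and 1.15 CPM in siFSCN1.

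Other neighbours that passed and rose were PCNX3 (0.68), RELA-DT (0.42), SLC25A45 (0.30) and SYVN1 (0.26). Those that passed and fell were FAM89B (-1.88), AP5B1 (-1.03), ZNRD2 (-0.96), SIPA1 (-0.76), RP11-867O8.9 (-0.72), POLA2 (-0.52), DPF2 (-0.29), KAT5 (-0.29) and EHBP1L1 (-0.14). Values that did not pass were -0.48 for RP11-867O8.11, -0.27 for AP003068.23, -0.18 for CMB9-22P13.1, -0.10 for TIGD3, -0.012 for MRPL49, 0.034 for RNASEH2C and 0.28 for ZNRD2-AS1. TALAM1, which lies antisense to MALAT1, was not analysed here. The other annotated antisense gene at MALAT1 held at most 3 counts in any library.

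**Figure D5:**
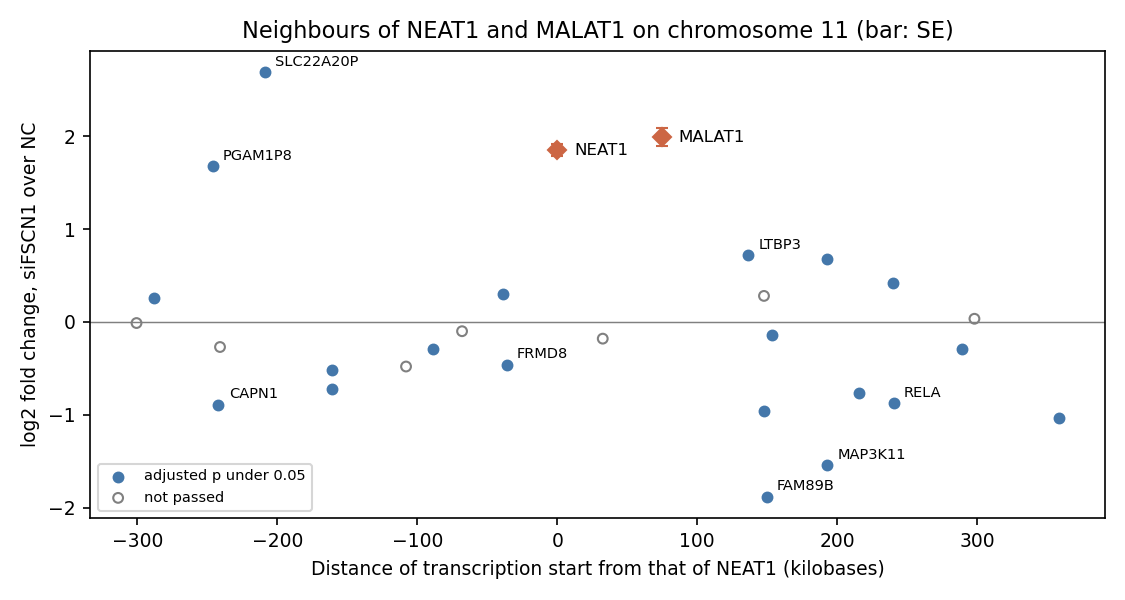
Log2 fold change on the TMM scale against the distance of each transcription start from that of NEAT1 in kilobases, for tested neighbours reported here (circles, filled where the adjusted p was under 0.05) and for NEAT1 and MALAT1 (diamonds, bars for the standard error). NEAT1 (1.85) and MALAT1 (1.99) stand above the genes between and beside them, and SLC22A20P (2.69, at most 0.3 FPKM in any library) stands above both. As NEAT1 was chosen by its rise, its height here carries no test.

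The genes most like NEAT1 and MALAT1 in pattern were sought among 5317 other genes with a mean of at least 5 FPKM, as the smallest root mean square difference between log2 CPM profiles centred over the 6 libraries. For NEAT1 these were HERC2P2 (0.046), AADAC (0.107), BCAN-AS1 (0.114), MESD (0.121) and FGL1 (0.132), and MALAT1 came in place 7 (0.139). For MALAT1 they were HERC2P2 (0.136), CYP1B1 (0.137), NEAT1 (0.139), GABRE (0.144) and AADAC (0.145). Means in NC were below 5 FPKM for HERC2P2, AADAC, BCAN-AS1, MESD and GABRE, which thus reached the limit through siFSCN1. HERC2P2, an unprocessed pseudogene of HERC2 whose reads may be shared with that gene and its other copies, averaged 2.24 FPKM in NC and 8.93 FPKM in siFSCN1, with a log2 fold change of 1.82. AADAC, an esterase of liver and gut, averaged 3.98 and 18.3 FPKM (2.03). With 6 libraries in 2 groups such a profile is mainly the difference between the groups, and the measure is a description.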

How the data were processed

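Polyadenylated RNA of 6 A549 libraries was analysed, 3 NC and 3 siFSCN1, grouped by sample title. Per the methods, the authors trimmed reads with the FASTX Toolkit, aligned them to GRCh38 with HISAT2 (the labels name TopHat2) and kept uniquely mapped reads. They deposited raw counts per gene and FPKM. The kits named are strand-specific, and neither the counter, the strand option nor the annotation release is given in the sources used here. Genes were kept by filterByExpr, scaled by TMM and tested by the quasi-likelihood method of edgeR 4.0.16 in R 4.3.3, with Benjamini-Hochberg adjustment over 17076 genes, whereas the authors used DESeq2. The tests were tried on simulated data first. Positions, biotypes and lengths came from GENCODE v44, in which 99.7% of identifiers were found. The promoter motifs and 3′ end windows were picked after the sequences had been seen. The members and gene lists were chosen with earlier results of these data known. Genes named from a list were up to 4 with the largest changes among those that passed, with no overlap between groups and at least 5 FPKM in the higher group, the 5 largest rises and falls for long non-coding RNAs, all neighbours, and the 5 nearest in pattern, and some genes named by this rule are not reported here. Alternatives were RLE, upper quartile and library-total scaling, DESeq2 1.42.0, no filter beyond 1 count, a stricter filter (mean counts of 10, and 1 CPM in at least 3 libraries), a block for replicate number, omission of each library in turn, and limma 3.58.1 on log2(FPKM + 0.1) and log2(FPKM + 1). No 2 libraries of a group agreed within sampling noise (chi-square per degree of freedom 3.03 to 8.14). The labels name no batch.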

Additional observations from a re-analysis of the deposited data

How the results depend on the processing

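NEAT1, MALAT1 and RBM14 kept their direction and were called under all 15 alternatives. PSPC1 kept its direction under all 15 and was called in 12, falling short of 2-fold with library totals and with limma on either FPKM scale. The log2 fold changes that moved by more than the spread between replicates were as follows. With library totals they were 2.04 for NEAT1, -0.01 for SFPQ, -0.30 for NONO, -0.96 for PSPC1, -1.07 for RBM14 and 0.043, the other sign, for TARDBP. With limma on log2(FPKM + 0.1) they were 2.01 for NEAT1, -0.031 for SFPQ, -0.32 for NONO, -0.96 for PSPC1, -1.08 for RBM14 and 0.022 for TARDBP, and on log2(FPKM + 1) -0.03 for SFPQ, -0.31 for NONO, -0.86 for PSPC1, -1.0 for RBM14 and 0.02 for TARDBP, which reversed on both. With upper quartile scaling they were -0.08 for SFPQ, -0.37 for NONO, -1.03 for PSPC1, -1.14 for RBM14 and -0.027 for TARDBP. NONO stood at -0.51 with RLE scaling, -0.52 with DESeq2 and -0.46 with the stricter filter, and TARDBP at -0.17 with DESeq2. Without one library NONO ran from -0.50 to -0.49 and TARDBP from -0.17 to -0.13.

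Over all genes the 1991 higher and 829 lower became 2637 higher and 510 lower with library totals, 395 lower with limma on log2(FPKM + 0.1), and 285 higher and 186 lower on log2(FPKM + 1). Among list genes that were lower, those found in paraspeckles numbered 12 (with 13 higher) with library totals, and 12 with limma on either FPKM scale, those of 3′ end processing 3 (with 7 higher) under the same alternatives, and those of RNase P and related enzymes 8 under these and with upper quartile scaling. With the stricter filter 1 gene of the last list was higher, and with library totals 15 speckle genes were higher and 12 lower. The number of higher 3′ end processing genes ran from 3 to 5 without one library. The cause of these shifts was not tested.

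Libraries that share a replicate number did not deviate together from their groups (correlations -0.035, 0.04 and -0.084), so no pairing by number was seen. With 3 libraries a group, these correlations cannot settle whether the libraries were prepared in pairs. With the replicate number as a block NEAT1 stood at 1.86 and MALAT1 at 2.0, and no call of the 7 genes changed. Of the 5 genes most like NEAT1 in pattern 1 was kept when every tested gene was compared, and of those most like MALAT1 0 were. Groups of 3 are too small for a search for outlying samples.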
